A study of Mus musculus with 12 samples.

Results

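The receptors Notch1, Notch2, Notch3 and Notch4, the ligands Jag1, Jag2, Dll1 and Dll4, and the glycosyltransferase gene Lfng (Lunatic fringe) were followed in livers of the NICD1/Akt model of cholangiocarcinoma (CCA). They were taken by name, and all 9 were found among the 21807 genes counted in each library. The RNA came from 12 liver libraries of C57BL/6J mice in 4 groups of 3. The methods give male mice of 5 weeks of age at injection, and no age at sampling or for uninjected controls. The NICD1/Akt groups were CCA tumors excised 3 weeks (libraries 1, 2 and 3) or 2 weeks (libraries 33, 34 and 35) after hydrodynamic tail vein injection (HTVI), which drives plasmid DNA into hepatocytes. The plasmids carried NICD1, the active intracellular part of Notch1 (10 µg), myr-AKT, a membrane-bound active AKT (10 µg), and the Sleeping Beauty transposase, which inserts both transgenes into the genome. These tumor samples are called NICD1/Akt livers below, so each comparison with controls sets tumor samples beside uninjected liver. The control groups were livers labelled WT from mice without injection. Their time labels, which nevertheless read weeks post-HTVI, assigned them to 3 weeks (libraries 10, 11 and 12) or 2 weeks (libraries 30, 31 and 32). Nothing in the sources used here says whether the 3 libraries of a group are 3 mice, so the spread behind each p-value may be technical. Control mice received no empty plasmid.

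Notch receptors are read out between touching cells. A Jagged or Delta-like ligand on one cell pulls on a receptor of its neighbour, Adam10 and then gamma-secretase cut the receptor, and the freed intracellular part binds Rbpj and a Mastermind protein in the nucleus to switch on genes such as Hes1 and Heyl. Lunatic fringe extends sugars on the receptor's extracellular repeats, which favours Delta-like over Jagged ligands. In the liver, Jag1 and Notch2 are needed for bile ducts to form, Notch4 and Dll4 are known from endothelial cells, and Notch3 from vascular smooth muscle cells, pericytes and activated stellate cells. The NICD1 transgene acts below ligand, receptor and gamma-secretase, in the nucleus.

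The gene counts of a library summed to 13136892 to 19594839. Levels are given as CPM (counts relative to the total of the library), scaled by the trimmed mean of M-values (TMM) over all 12 libraries. Fold changes are log2 values from edgeR's quasi-likelihood test, with a standard error (SE) and a p-value adjusted over all genes tested, and genes with an adjusted p under 0.05 are called higher or lower. The library labelled as control 32 stood apart from the other 2-week controls: it had 381 CPM of Akt1 and 1874 CPM of Spp1, against 90.8 and 90.0 CPM of Akt1 and 56.5 and 53.7 CPM of Spp1 in libraries 30 and 31. It was also the only 2-week library with RNA of the Y-linked gene Ddx3y, at 57.1 CPM, where the other 5 had 0 to 0.398 CPM and the 6 libraries of 3 weeks 52.2 to 126 CPM. Sex as read from Ddx3y and stage can therefore not be told apart in comparisons of 3 with 2 weeks, and 2-week results are given with and without library 32. The methods name male mice only, which the Ddx3y levels of the other 5 2-week libraries do not bear out. Transgene RNA that matches mouse Notch1 or Akt1 is counted with these genes and cannot be told apart from their own RNA. In these bulk livers, fewer cells of a type and less RNA per cell cannot be told apart either.

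Rbpj binds DNA at the letters TGGGAA, often within GTGGGAA, so the 250 bases upstream of each start site were searched on both strands for these letters (TTCCCA and TTCCCAC on the opposite strand; every GTGGGAA match contains a TGGGAA match). The windows are RefSeq promoters on GRCm38.p6, and all 9 genes matched an entry, with 10 windows since Dll1 has a pair of start sites. For Jag2, Notch3 and both start sites of Dll1, the bases just downstream of the start were not found whole in a GENCODE M21 transcript of the gene. Their start sites, and what is read from their windows here and below, are therefore less certain. Among the 9 genes, matches were found only upstream of Lfng, with TGGGAA on the gene's strand 108 bases before the start and on the opposite strand 135 bases before it. Of all 32851 promoters, 21.6% held TGGGAA and 5.42% held GTGGGAA, which Lfng has 109 bases before its start. For comparison, 4 of the 10 canonical Notch target genes listed below had an entry and 2 of these, Hes5 and Hey2, held GTGGGAA. A match is a run of letters, not a binding site. The 150 bases upstream of Lfng (chr5:140607191-140607340, plus strand) and the 100 bases upstream of Hes5, a gene long known as a Notch target (chr4:154960823-154960922, plus strand), are shown 5′ to 3′ with TGGGAA and TTCCCA in capitals.
Lfng: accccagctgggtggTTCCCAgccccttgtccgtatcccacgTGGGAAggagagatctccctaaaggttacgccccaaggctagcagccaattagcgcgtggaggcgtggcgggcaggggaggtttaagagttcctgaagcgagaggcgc
Hes5: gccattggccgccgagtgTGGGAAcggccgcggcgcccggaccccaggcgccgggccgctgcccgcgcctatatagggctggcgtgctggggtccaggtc

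The receptor promoters differed in their number of CG pairs, the letters at which DNA is methylated. In the 250 bases upstream, Notch2 had 34 pairs, Notch3 17, Notch1 16 and Notch4 4, against a median of 6 over the 32851 promoters. The same windows had 54 pairs for Jag2, 20 for Jag1, 14 for Dll4, 18 for Lfng, and 21 and 13 for the 2 start sites of Dll1, so that Notch4 alone among the 9 genes lay below the median. The 120 bases just upstream of Notch2 (chr3:98013418-98013537, plus strand) and Notch4 (chr17:34564175-34564294, plus strand) are shown with each CG in capitals, as the receptor promoters with the most and the fewest.
Notch2: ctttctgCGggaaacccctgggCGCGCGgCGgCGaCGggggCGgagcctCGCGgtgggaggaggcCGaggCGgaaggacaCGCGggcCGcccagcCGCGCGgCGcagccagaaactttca
Notch4: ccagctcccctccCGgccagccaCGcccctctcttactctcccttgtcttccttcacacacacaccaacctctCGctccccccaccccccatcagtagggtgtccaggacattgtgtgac

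At 3 weeks, 8 of the 9 genes were higher in NICD1/Akt than in control livers and none was lower. The 8 include Jag2, which passed the filter on low counts through the NICD1/Akt libraries, so the filter favoured its direction. Notch1 was 9.12-fold higher, Notch3 4.05-fold, Notch4 3.19-fold, Jag2 3.08-fold, Jag1 3.02-fold, Dll4 2.47-fold, Notch2 1.90-fold and Lfng 1.85-fold. Dll1 did not pass the test. Over all 13408 genes tested, 38.9% were called higher and 33.1% lower, with a median log2 fold change of 0.06, so a called gene was common at this stage. For the same 8 genes, all 3 NICD1/Akt libraries lay above all 3 controls, which held for 37.8% of all genes tested.

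**Figure D1:**
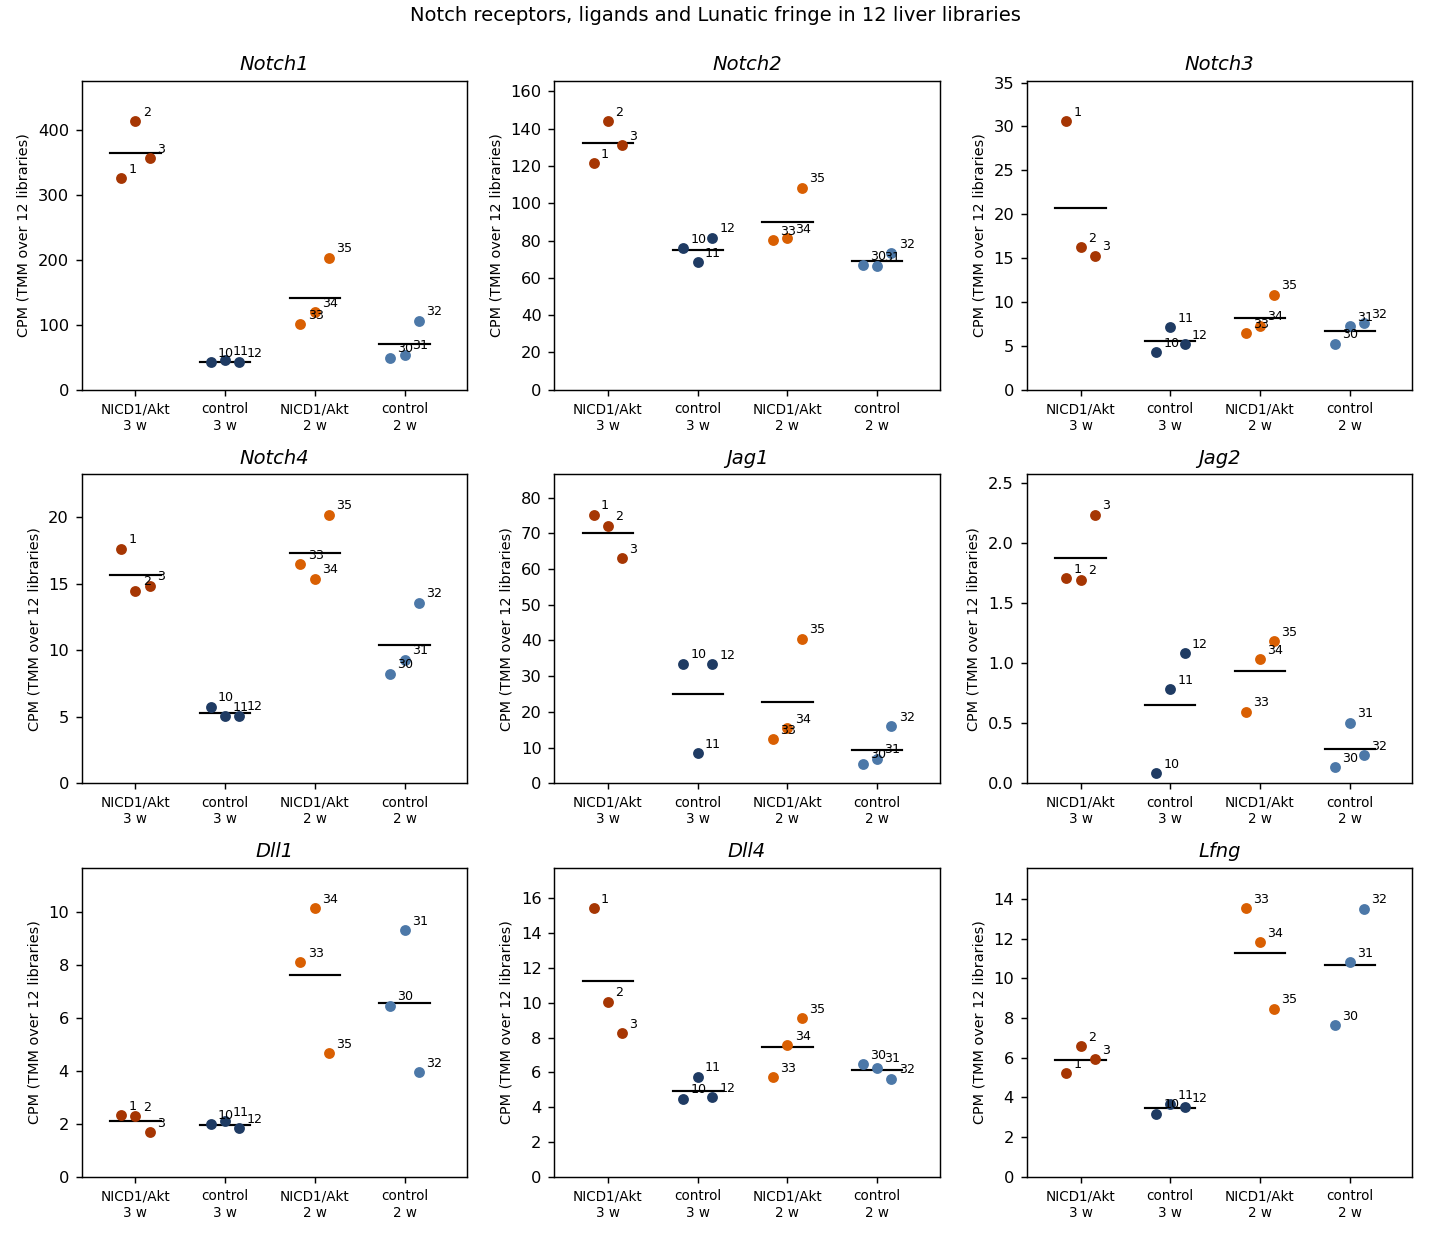
CPM (TMM over 12 libraries, linear axes from 0) of the 9 genes in each liver library; points carry the library number, lines are group means, and each panel shows NICD1/Akt and control livers at 3 weeks, then at 2 weeks. At 3 weeks the points of NICD1/Akt livers lie above those of controls in every panel but that of Dll1, and control library 11 lies at 8.34 CPM of Jag1 where libraries 10 and 12 lie at 33.5 and 33.4 CPM.

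Notch1, the receptor whose intracellular part the plasmid encodes, had 325, 413 and 356 CPM in the NICD1/Akt libraries of 3 weeks, against 42.3, 45.5 and 42.1 CPM in controls. The lowest NICD1/Akt library thus lay far above the highest control. The log2 fold change was 3.19 (SE 0.13, edgeR adjusted p = 4.21e-07). These counts hold any transgene RNA that matches the gene, and how much of the difference is endogenous Notch1 was not tested.

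Notch2, the receptor paired with Jag1 in bile duct development, had 121, 144 and 131 CPM in NICD1/Akt livers and 75.8, 68.4 and 81.4 CPM in controls at 3 weeks. Its difference was the smallest of the receptors and its replicates lay close together (log2 fold change 0.93, SE 0.11, edgeR adjusted p = 0.000108). Notch3 had 30.6, 16.3 and 15.3 CPM in NICD1/Akt livers, against 4.31, 7.13 and 5.16 CPM in controls. Library 1 lay well above its replicates, and the groups did not overlap (log2 fold change 2.02, SE 0.31, edgeR adjusted p = 0.000503). Notch4 had 17.6, 14.5 and 14.8 CPM in NICD1/Akt livers and 5.77, 5.04 and 5.08 CPM in controls, with little spread in either group (log2 fold change 1.68, SE 0.14, edgeR adjusted p = 1.87e-05).

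Among the ligands, Jag1 at 3 weeks had 75.2, 72.1 and 63.1 CPM in NICD1/Akt livers, against 33.5, 8.34 and 33.4 CPM in controls. All NICD1/Akt libraries were above the controls, of which library 11 was low (log2 fold change 1.59, SE 0.41, edgeR adjusted p = 0.00717). Library 11 also differed from its replicates in Myc, a growth regulator on the list of Notch targets below, with 37.6 CPM against 213 and 188 CPM in libraries 10 and 12; the part of this in Jag1 was not tested. Without library 11, the fold change of Jag1 came to 1.17 and was still called. Jag2 was the ligand with the least RNA, with 45, 46 and 48 counts or 1.71, 1.70 and 2.24 CPM in NICD1/Akt livers and 1, 9 and 13 counts or 0.0861, 0.782 and 1.08 CPM in controls. It passed the filter on low counts through the NICD1/Akt libraries, where it is high, so the filter favoured this direction. The log2 fold change was 1.62 (SE 0.52, edgeR adjusted p = 0.0200), and the call was lost without NICD1/Akt library 3 (1.48, edgeR adjusted p = 0.0588).

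Dll4, the ligand of endothelial cells, had 15.4, 10.0 and 8.26 CPM in NICD1/Akt livers and 4.48, 5.74 and 4.58 CPM in controls at 3 weeks. As for Notch3, library 1 was the highest NICD1/Akt library, and the groups did not overlap (log2 fold change 1.31, SE 0.26, edgeR adjusted p = 0.00179). Dll1, the other Delta-like ligand measured here, had 2.32, 2.29 and 1.68 CPM in NICD1/Akt livers and 1.98, 2.09 and 1.83 CPM in controls. These ranges overlap and the log2 fold change of 0.21 had a 95% interval of -0.35 to 0.77 (SE 0.24, edgeR adjusted p = 0.454). A change within that interval is therefore not excluded. Scaled by library size alone, which raised the median of all genes to 0.77 and split all calls into 9076 higher and 1287 lower in place of 5218 and 4432, Dll1 passed too, at 0.92.

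At 3 weeks Lfng had 5.21, 6.57 and 5.92 CPM in NICD1/Akt livers, against 3.19, 3.65 and 3.50 CPM in controls. The groups did not overlap and the difference was modest (log2 fold change 0.89, SE 0.18, edgeR adjusted p = 0.00217). This call depended on the controls of its own stage: against the 5 controls of both stages other than library 32, the value was 0.17 (edgeR adjusted p = 0.751), and against all 6 it was -0.26 (edgeR adjusted p = 0.678). Control levels of Lfng differed between the stages, as described below.

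Cell type markers differed in the same libraries, where 38.9% of all genes tested at 3 weeks were called higher and 33.1% lower. At 3 weeks, 10 of 12 biliary markers were higher and 2 lower, with a summed level of 3753 to 4378 CPM in NICD1/Akt livers and 447 to 494 CPM in controls. Of 15 markers of stellate cells, pericytes and fibroblasts, where Notch3 is known, 12 were higher and none lower, with sums of 2960 to 3974 CPM against 411 to 537 CPM. Of 16 vascular and pan-endothelial markers 7 were higher and 2 lower, with overlapping sums of 336 to 373 CPM in NICD1/Akt livers and 302 to 353 CPM in controls, and of 12 sinusoidal endothelial markers none was higher and 8 were lower, with sums of 390 to 459 CPM against 702 to 775 CPM. Notch4 and Dll4 were thus higher in libraries in which 8 of 12 sinusoidal endothelial markers were lower. In the same libraries 7 of 16 vascular and pan-endothelial markers were higher and 2 lower. Of 10 macrophage markers 6 were higher and 4 lower, and of 3 tested lymphocyte markers 1 was higher and 1 lower. Hepatocyte markers were all present, with 11 of 12 lower and sums of 42200 to 58461 CPM against 156040 to 158120 CPM. The part of these shifts in the Notch genes was not tested. A marker with little RNA in controls can pass the filter on low counts through the NICD1/Akt libraries alone, which favours a higher call. Fitted differences reached 426-fold for Cspg4 and 659-fold for Cftr, and how many markers passed in this way was not counted.

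At 2 weeks, none of the 9 genes was called. Jag2 was left out by the filter on low counts, with 9, 14 and 30 counts in NICD1/Akt livers against 2, 7 and 3 in controls, and the other 8 were tested. Of all 13041 genes tested, 0% were called higher and 0% lower by edgeR's quasi-likelihood test. With no adjustment (p under 0.05), 3 of the 8 genes passed as higher (Notch1, Notch2 and Notch4) and none as lower, where 4.90% of all genes passed as higher and 3.69% as lower. DESeq2 called 13 genes higher and 14 lower and edgeR's likelihood ratio test 7 and 5, none of them among the 9, and limma-voom called none.

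The 2-week levels of the receptors were spread in both groups. Notch1 had 100.7, 119 and 203 CPM in NICD1/Akt libraries 33, 34 and 35, against 49.1, 53.7 and 106 CPM in control libraries 30, 31 and 32. Library 32 lay inside the NICD1/Akt range, and library 35 was the highest (log2 fold change 1.03, SE 0.39, edgeR adjusted p = 0.520). Notch4 had 16.5, 15.4 and 20.2 CPM against 8.25, 9.29 and 13.6 CPM, without overlap (0.75, SE 0.23, edgeR adjusted p = 0.520). Notch2 had 80.2, 81.4 and 108 CPM in NICD1/Akt livers and 66.8, 66.3 and 73.3 CPM in controls, also without overlap (0.39, SE 0.16, edgeR adjusted p = 0.520). Notch3, with 6.44, 7.32 and 10.8 CPM against 5.25, 7.27 and 7.57 CPM, overlapped between groups (0.31, SE 0.27).

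Of the ligands at 2 weeks, Jag1 had 12.4, 15.5 and 40.5 CPM in NICD1/Akt livers and 5.45, 6.91 and 15.9 CPM in controls. Libraries 35 and 32 were the high ones of their groups, and the ranges overlapped (log2 fold change 1.29, SE 0.59, edgeR adjusted p = 0.520). Dll4 had 5.71, 7.54 and 9.11 CPM against 6.45, 6.27 and 5.64 CPM (0.30, SE 0.23). Dll1 had 8.09, 10.1 and 4.65 CPM in NICD1/Akt livers and 6.45, 9.29 and 3.94 CPM in controls (0.22, SE 0.40), so that libraries 35 and 32, the highest of their groups for Notch1 and Jag1, were the lowest for Dll1. Lfng had 13.5, 11.8 and 8.47 CPM against 7.65, 10.8 and 13.5 CPM (0.09, SE 0.27).

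Counting Jag2, 3 of the 9 genes had all NICD1/Akt libraries above all 2-week controls (Notch2, Notch4 and Jag2), where 7.41% of the genes tested did. Against libraries 30 and 31 alone the count was 5, with Notch1 and Jag1 added, where 23.4% of genes did. Without library 32 the 2-week fold change of Notch1 was 1.47, that of Jag1 1.91 and that of Notch4 0.99, and the edgeR adjusted p were 0.195, 0.219 and 0.195. Against the 5 controls of both stages other than library 32, a comparison chosen after the data were seen, Notch1 (1.63, edgeR adjusted p = 0.0107) and Notch4 (1.40, edgeR adjusted p = 0.0196) were called at 2 weeks. In that setting 6.68% of 12988 genes were called higher and 1.29% lower (867 and 167 genes), so calls were more frequent among all genes too. These 5 controls include the 3-week ones, where Notch1 averaged 43.3 CPM and Notch4 5.30 CPM. All 2-week controls, library 32 among them, averaged 69.7 and 10.4 CPM. Stage and sex as read from Ddx3y therefore enter the values of Notch1 and Notch4 in that setting. Markers moved with libraries 35 and 32 too: the summed biliary markers came to 1416, 1625 and 5008 CPM for NICD1/Akt libraries 33, 34 and 35, against 309, 287 and 2249 CPM in control libraries 30, 31 and 32, and the part of this in the Notch genes was not tested.

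**Figure D2:**
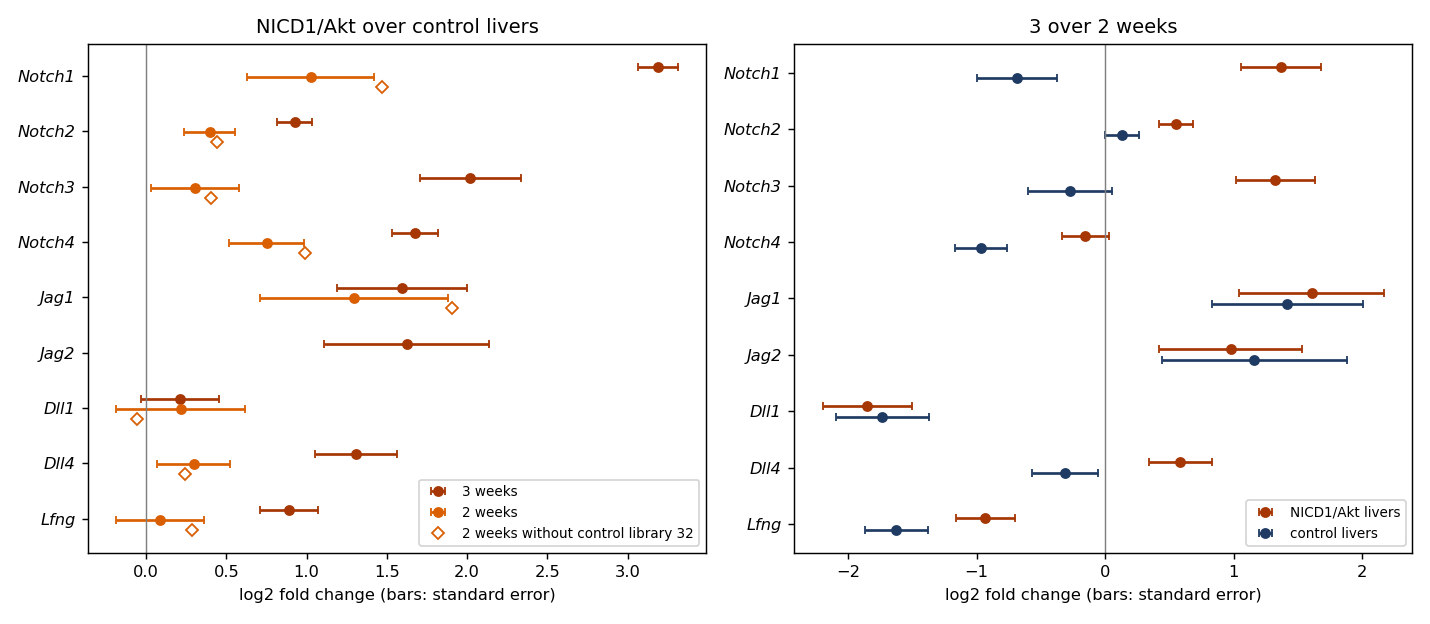
Left, log2 fold changes of NICD1/Akt over control livers at 3 weeks and at 2 weeks, with standard errors as bars, and at 2 weeks without control library 32 (open diamonds, values only); Jag2 was not tested at 2 weeks. Right, log2 fold changes of 3 over 2 weeks in NICD1/Akt and in control livers, with standard errors as bars. Notch1 lies at 3.19 at 3 weeks and 1.03 at 2 weeks. On the right, Dll1, Lfng and Notch4 lie below 0 in both groups, and Notch4 was called only in controls.

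Whether the effect at 3 weeks differed from that at 2 weeks was tested in a fit of all 12 libraries, in which 15.0% of 13829 genes had a higher and 15.8% a lower effect at 3 weeks. Of the 9 genes 3, all receptors, had a higher effect at 3 weeks and none a lower one. Notch1 differed by 2.05 on the log2 scale (SE 0.44, edgeR adjusted p = 0.00967), Notch3 by 1.60 (SE 0.45, edgeR adjusted p = 0.0245) and Notch4 by 0.81 (SE 0.27, edgeR adjusted p = 0.0441). The difference of Notch1 passed without any 1 of the 12 libraries. That of Notch3 was lost without library 33, 34, 10 or 12 (1.45 to 1.55, edgeR adjusted p 0.0541 to 0.0606). That of Notch4 was lost without any 1 library other than 30 or 35, with values of 0.59 (without library 32) to 0.88 (without library 31). Dll4 (0.90, edgeR adjusted p = 0.0728), Lfng (0.69, edgeR adjusted p = 0.127) and Notch2 (0.42, edgeR adjusted p = 0.0989) did not pass, although Notch2 and Dll4 did without library 35, at 0.58 and 1.07, and Dll4 also did without library 3, at 1.08. The intervals of Jag1 (-1.59 to 1.96), Jag2 (-2.07 to 1.71) and Dll1 (-1.21 to 0.98) were wide.

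The stages were then compared within each group. In NICD1/Akt livers, 3 of the 9 genes were higher at 3 than at 2 weeks (Notch1, Notch2 and Notch3) and 2 were lower (Dll1 and Lfng), where 11.1% of all genes were higher and 17.4% lower. In controls none of the 9 was higher and 3 were lower (Notch4, Dll1 and Lfng), where 17.4% of all genes were higher and 20.4% lower. Jag1 passed as higher in controls without adjustment, and DESeq2 and edgeR's likelihood ratio test called it. The 2-week libraries enter both these values and the difference between stages.

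The receptors took different paths to their 3-week levels. In NICD1/Akt livers Notch1 averaged 365 ± 44.3 CPM at 3 weeks and 141 ± 54.4 CPM at 2 weeks (SD, n = 3 each; log2 fold change 1.37, SE 0.31, edgeR adjusted p = 0.00971). In controls it averaged 43.3 ± 1.90 CPM at 3 weeks and 69.7 ± 31.8 CPM at 2 weeks, where library 32 was the highest. Notch3 averaged 20.7 ± 8.58 CPM at 3 weeks and 8.20 ± 2.33 CPM at 2 weeks in NICD1/Akt livers (1.33, SE 0.31, edgeR adjusted p = 0.0110), and 5.53 ± 1.45 and 6.70 ± 1.26 CPM in controls at 3 and 2 weeks. Notch2 was higher at 3 weeks by 0.55 (SE 0.13, edgeR adjusted p = 0.0117), and the calls of Notch2 and Notch3 were lost without library 33 (0.48 and 1.178, edgeR adjusted p = 0.0533 and 0.0513). Notch4 differed from these: in NICD1/Akt livers it averaged 15.6 ± 1.73 CPM at 3 weeks and 17.3 ± 2.52 CPM at 2 weeks (-0.15, 95% interval -0.56 to 0.26), while in controls it was lower at 3 weeks, with 5.30 ± 0.410 CPM against 10.4 ± 2.83 CPM at 2 weeks (-0.97, SE 0.20, edgeR adjusted p = 0.00363). By these means, the larger effect on Notch4 at 3 weeks went with lower controls, and no change was called in NICD1/Akt livers. Library 32 was the highest 2-week control here too, and stage cannot be told apart from sex as read from Ddx3y.

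Dll1 and Lfng were lower at 3 than at 2 weeks in both groups. Dll1 averaged 2.10 ± 0.361 CPM at 3 weeks and 7.63 ± 2.77 CPM at 2 weeks in NICD1/Akt livers (log2 fold change -1.85, SE 0.35, edgeR adjusted p = 0.00439), and 1.97 ± 0.128 and 6.56 ± 2.68 CPM in controls (-1.74, SE 0.36, edgeR adjusted p = 0.00391). Lfng averaged 5.90 ± 0.684 CPM at 3 weeks and 11.3 ± 2.57 CPM at 2 weeks in NICD1/Akt livers (-0.93, SE 0.23, edgeR adjusted p = 0.0137), and 3.44 ± 0.237 and 10.7 ± 2.93 CPM in controls (-1.62, SE 0.24, edgeR adjusted p = 0.000573). The call of Lfng in NICD1/Akt livers was lost without library 33 (-0.78, edgeR adjusted p = 0.0619) or library 1 (-0.85, edgeR adjusted p = 0.0523). Jag1 had positive values in both groups and did not pass the quasi-likelihood test: it was at 70.1 ± 6.29 CPM at 3 weeks and 22.8 ± 15.4 CPM at 2 weeks in NICD1/Akt livers (1.61, SE 0.57, edgeR adjusted p = 0.0551), and at 25.1 ± 14.5 and 9.42 ± 5.66 CPM in controls (1.42, SE 0.59, edgeR adjusted p = 0.0790). In NICD1/Akt livers DESeq2 (1.65, adjusted p = 0.0159), edgeR's likelihood ratio test (1.62, adjusted p = 0.0220) and limma-voom (1.72, adjusted p = 0.0317) called it, and so did the quasi-likelihood test after scaling by library size only (1.91, edgeR adjusted p = 0.049986). The quasi-likelihood test also called it in NICD1/Akt livers without library 32, 35 or 11 (1.59 to 2.33), and in controls without any 1 of these (1.42 to 2.01).

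To compare genes with each other, CPM were divided by the length of the merged exons in GENCODE M21, which ran from 2.505 kb for Lfng to 14.23 kb for Notch1. Merged exons join all annotated transcripts and can be longer than the RNA present, and transgene reads can cover only part of Notch1. The orders and shares given below depend on these lengths. In NICD1/Akt livers at 3 weeks the order by mean CPM per kb was Notch1 (25.6), Notch2 (12.26), Jag1 (12.03), Dll4 (2.92), Notch3 (2.56), Lfng (2.36), Notch4 (1.94), Dll1 (0.497) and Jag2 (0.270). The ranges of Notch2 and Jag1 overlapped, as did those of each neighbouring pair from Dll4 to Notch4. In controls at 3 weeks the order was Notch2 (6.98), Jag1 (4.30), Notch1 (3.04), Lfng (1.38), Dll4 (1.28), Notch3 (0.684), Notch4 (0.657), Dll1 (0.466) and Jag2 (0.0934), with overlap between Jag1 and Notch1, between Lfng and Dll4, and between Notch3 and Notch4.

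At 2 weeks the order was less distinct. In NICD1/Akt livers it ran from Notch1 (9.90 CPM per kb) and Notch2 (8.34), which overlapped, through Lfng (4.50), Jag1 (3.91), Notch4 (2.15), Dll4 (1.93), Dll1 (1.81) and Notch3 (1.01), each of which overlapped with the next, to Jag2 (0.135). In controls Notch2 (6.38), Notch1 (4.90) and Lfng (4.25) formed an overlapping top group, followed by Jag1 (1.62), Dll4 (1.59), Dll1 (1.55) and Notch4 (1.29), which overlapped in turn, and then by Notch3 (0.828) and Jag2 (0.0416). Lfng was therefore among the 4 highest of the 9 genes at 2 weeks in both groups.

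**Figure D3:**
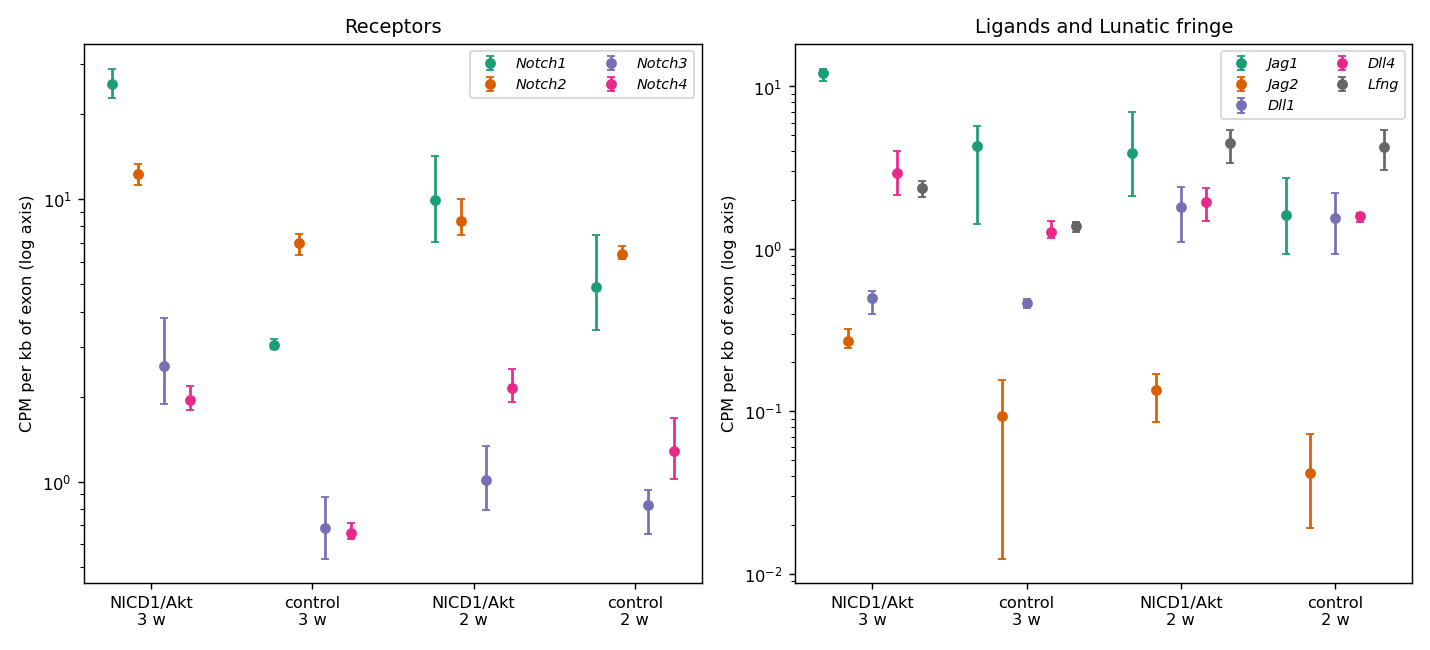
Mean CPM per kb of merged exons (log axis) of the receptors (left) and of the ligands and Lfng (right) in NICD1/Akt and control livers at 3 weeks and at 2 weeks; bars run from the lowest to the highest of 3 libraries. Notch1 lies above Notch2 in NICD1/Akt livers at 3 weeks (25.6 against 12.3) and below it in controls (3.04 against 6.98).

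As a share of the summed receptor level per kb, Notch1 made up 60.3% ± 2.99 in NICD1/Akt livers at 3 weeks and 26.8% ± 1.94 in controls (SD, n = 3 each), while Notch2 made up 28.9% ± 0.826 and 61.4% ± 3.49. At 2 weeks Notch1 made up 45.4% ± 4.96 in NICD1/Akt livers and 35.4% ± 7.66 in controls. Among the ligands Jag1 held the largest share at 3 weeks, with 76.8% ± 3.42 in NICD1/Akt livers and 64.9% ± 21.1 in controls, where library 11 gave 40.6%. At 2 weeks it held 46.9% ± 16.3 in NICD1/Akt livers and 32.9% ± 17.3 in controls. Dll1 held 3.15% ± 0.270 in NICD1/Akt livers and 8.72% ± 4.598 in controls at 3 weeks, against 26.0% ± 13.5 and 32.7% ± 13.1 at 2 weeks. The share of Notch1 may include transgene RNA, and the shares were not tested.

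The other genes of the pathway were taken from 7 lists with 76 genes, written with earlier results of these data known. At 2 weeks no gene of these lists was called. At 3 weeks, 3 of 8 further ligands were tested, all called higher: Postn, which encodes the matrix protein periostin (4.53, SE 0.26), the microfibril gene Mfap2, and Dlk1, which encodes a Delta-like protein without the receptor-binding domain of the canonical ligands. Mfap2 had 67, 78 and 40 counts in NICD1/Akt livers against 0, 0 and 3 in controls, and Dlk1 153, 86 and 33 against 0, 1 and 0. Mfap2 and Dlk1 passed the filter on low counts only through the NICD1/Akt libraries, so their direction was fixed by the filter, and with so few counts in controls the size of the difference is not given. The filter fixed the direction of Gxylt2, Neurl1a, Neurl1b and Hes5, given below, in the same way. The other lists below stand beside a median of 0.06 over all genes tested, of which 38.9% were called higher and 33.1% lower. Dll3, a Delta-like protein that acts within the cell, was at 0 in 11 of the 12 libraries and had a single count in control library 31 at 2 weeks.

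Of 10 other fringes and receptor glycosyltransferases 7 were higher and 1 lower at 3 weeks (median 0.80). The xylosyltransferase gene Gxylt2 had 106, 273 and 142 counts in NICD1/Akt livers against 0, 0 and 2 in controls. Xxylt1, another of this kind, was higher by 1.73 (SE 0.20), and Eogt, which adds N-acetylglucosamine to extracellular repeats, by 1.17 (SE 0.16). The fringes were not alike: Manic fringe (Mfng) was higher, with 2.55, 2.25 and 3.69 CPM in NICD1/Akt livers against 1.29, 1.22 and 1.67 CPM in controls (1.12, SE 0.29, edgeR adjusted p = 0.00810), and Radical fringe (Rfng) was lower, with 12.3, 11.04 and 11.9 CPM against 22.3, 23.8 and 15.2 CPM (-0.68, SE 0.17, edgeR adjusted p = 0.00620). Of 8 genes of ligand endocytosis, the step by which a ligand pulls on a receptor, 4 were higher and 2 lower (median 0.74). Higher were the Neuralized ubiquitin ligase genes Neurl1a, Neurl1b and Neurl3 (2.02, SE 0.22). Neurl1a had only 2, 1 and 4 counts in controls and Neurl1b 2, 0 and 8. Both passed the filter on low counts only through the NICD1/Akt libraries, so their direction was fixed and the size is not given.

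Of 10 protease and gamma-secretase genes 3 were higher and 5 lower (median -0.32). Adam10, which makes the first of the activating cuts, was higher by 0.82 (SE 0.08). Psen2, a catalytic subunit of gamma-secretase, was lower by 1.40 on the log2 scale (-1.40, SE 0.18), and Furin, which cuts receptors on their way to the surface, was also lower (-0.83, SE 0.15). Of 13 tested negative regulators and trafficking genes 8 were higher and 3 lower (median 0.64), with Dtx3 (2.98, SE 0.19) and Dtx4 (2.52, SE 0.14), of the Deltex ubiquitin ligase family, among the higher and Sel1l, of protein quality control in the endoplasmic reticulum, among the lower (-0.99, SE 0.11).

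Of 16 genes of the nuclear complex and its corepressors 6 were higher and 4 lower (median 0.16). Over all genes tested 38.9% were higher and 33.1% lower, so these counts do not set the list apart. Rbpj itself, the DNA-binding partner of NICD, had 9.42, 11.9 and 9.80 CPM in NICD1/Akt livers and 9.39, 10.3 and 11.1 CPM in controls, which overlap (0.13, SE 0.14, edgeR adjusted p = 0.424). The coactivator gene Maml2 (2.702, SE 0.17), the corepressor gene Ctbp2 (3.38, SE 0.19) and the histone demethylase gene Kdm1a (0.91, SE 0.09) were higher. Of 9 tested canonical targets 8 were higher and 1 lower (median 4.13), with Nrarp, a feedback inhibitor that binds NICD (8.62, SE 0.27), the Hairy-related repressor gene Heyl (5.31, SE 0.16), Ccnd1, which encodes cyclin D1 (3.37, SE 0.17), and Hes1 (2.57, SE 0.23) among the higher. Hes1 had 41.9, 43.9 and 43.2 CPM in NICD1/Akt livers against 5.34, 11.6 and 6.58 CPM in controls. The lower target was Myc, with 23.8, 29.5 and 15.5 CPM against 213, 37.6 and 188 CPM.

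**Figure D4:**
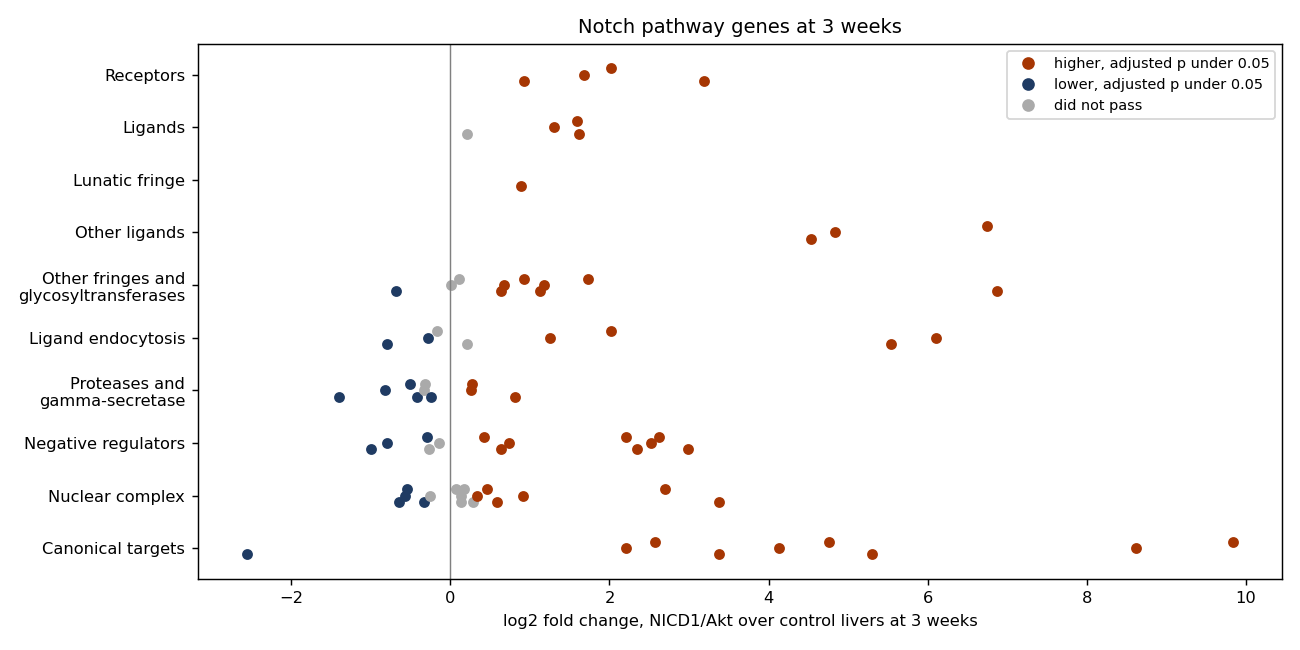
Log2 fold changes of NICD1/Akt over control livers at 3 weeks for every tested gene of the receptors, ligands, Lfng and 7 further Notch pathway lists; each point is a gene and colours give the edgeR call at an adjusted p under 0.05. Canonical targets reach the highest values, and genes called lower lie among the glycosyltransferases, ligand endocytosis, proteases, negative regulators, nuclear complex and targets. The point of Hes5, which had 0 counts in every 3-week control, depends on the prior count of the fit, as do those of other genes with few counts in controls: its mean level was at least 23.8-fold higher against a floor of 3 counts per library.

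The genes whose levels followed each Notch gene most closely were listed by Pearson's r of log2 CPM over the 12 libraries, among 12745 genes with a mean of at least 1 CPM; these libraries fall into 4 groups and differ together in cell makeup, so r is a description. Notch1 was followed by 1810010D01Rik, Erich5 and Abcc1 (r 0.994 to 0.996) and had 1478 genes above 0.9. Notch2 was followed by Gnb1, Slc7a1 and Mrs2 (0.982 to 0.983), and Notch4 by Emilin1, Arhgap27 and Eln (0.979 to 0.984). Jag1 was followed by F3, Tes and Dennd2a (0.973 to 0.982), Dll1 by Cyp17a1, Prkca and Adcy4 (0.970 to 0.977), Lfng by Ifi27, Slc15a3 and Jade2 (0.958 to 0.968), Notch3 by Appl2, Vat1 and Cacnb1 (0.943 to 0.952), and Jag2 by Amz2, Smad5 and Tpbg (0.858 to 0.913). The gene closest to Dll4 was Notch3 itself, at 0.938, before Rabgap1 (0.929) and Cdkn1c (0.922), and only 16 genes lay above 0.9 for Dll4.

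Some of the counts share exons with other genes. In GENCODE M21, exons of Notch1, Notch3, Dll1 and Dll4 overlap those of genes on the opposite strand, and Notch2 overlaps Gm42820 on its own strand. The strand setting of the counting is not given in the sources used here, so reads in these stretches cannot be assigned with certainty. Notch4, Jag1, Jag2 and Lfng have no such overlap.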

How the data were processed

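Liver RNA was sequenced as stranded poly(A) libraries. The deposited values are raw counts, whole and not normalized, with a separate table for 2 and 3 weeks. STAR, HTSeq and mm10 are named in the methods, whereas GRCm39, STAR 2.7 and Subread 2.0.6 stand in the submitters' processing notes. The build was not settled, so no coordinates are given for the counts. Gene IDs were matched to GENCODE M21 names for 21573 of 21807 IDs.

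From the counts, TMM scaling, filterByExpr and the quasi-likelihood test of edgeR 4.0.16 in R 4.3.3 were applied, with Benjamini-Hochberg adjustment over all genes tested, each stage on its own 6 libraries, and the difference between stages and 3 against 2 weeks on all 12. Each SE is the fold change divided by the square root of F, and intervals are 95% t intervals. Levels and shares cover replicate spread only.

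The members and lists were chosen with earlier results of these data known. Named genes are the 9 members, up to 3 genes of each pathway list by lowest 3-week adjusted p with a mean of at least 1 CPM, Dll3, Mfng, Rfng, Rbpj and Hes1, the 3 genes most like each member, and Akt1, Ddx3y and Spp1; Myc, Hes5 and Hey2 were added after their values were seen.

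On simulated counts for each comparison, 75 of 100 genes changed 2-fold and 96 of 100 changed 4-fold were recovered at 3 weeks among 13408 genes, 8 and 74 at 2 weeks among 13041, and 17 and 57 for the difference among 13829. Chi-square per gene between replicates was 4.77 to 130, so no library appeared as a repeat of another. Alternatives were edgeR's likelihood ratio test, DESeq2 1.42.0, limma-voom with limma 3.58.1, other scalings, filters and thresholds, thinning, all 12 libraries in 1 fit, all 6 controls and leaving out each library; the 5 controls without library 32 were added after the data were seen.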

Additional observations from a re-analysis of the deposited data

Results flagged for a closer look

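The effect of NICD1/Akt on 3 of the 9 genes differed between the stages by a test of the difference itself, from the fit of 12 libraries. For Notch1 the effect at 3 weeks exceeded that at 2 weeks by 2.05 on the log2 scale (edgeR adjusted p = 0.00967), and all 3 NICD1/Akt libraries of 3 weeks lay above those of 2 weeks. Notch1 counts may include transgene RNA, and its part in the difference was not tested. For Notch3 the difference was 1.60 (edgeR adjusted p = 0.0245), with a like arrangement of libraries. For Notch4 it was 0.81 (edgeR adjusted p = 0.0441), and here the NICD1/Akt libraries of both stages overlapped while all 3 controls of 3 weeks lay below those of 2 weeks; without control library 32 it was 0.59 (edgeR adjusted p = 0.0904). Stage cannot be told apart from sex as read from Ddx3y in these comparisons. Groups of 3 are too small for a test of single outlying libraries.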

How the results depend on the processing

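At 3 weeks the calls of Notch1, Notch2, Notch3, Notch4, Jag1 and Dll4 were kept under all 20 alternatives run, with log2 fold changes of 2.69 to 3.90, 0.81 to 1.64, 1.62 to 2.72, 0.99 to 2.38, 1.17 to 2.30 and 1.01 to 2.01. Against all 6 controls, Dll1 came to -1.03 and Lfng to -0.26, and against the 5 controls without library 32 Dll1 came to -0.91. These controls pool both stages.

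Counts of called genes moved as follows. At 2 weeks, 3 were higher at an unadjusted p and 2 against the 5 controls without library 32, where 867 of all genes were higher and 167 lower. For the difference between stages, 1 was higher with limma-voom and with an adjusted p under 0.01, 6 with library size only, 5 with upper quartile scaling and at an unadjusted p, and 1 to 5 when each library was left out. From 2 to 3 weeks in NICD1/Akt livers, 5 were higher and 1 lower with library size only, 1 and 1 with an adjusted p under 0.01, 5 higher at an unadjusted p, and 1 to 5 higher and 1 to 2 lower when each library was left out. In controls, 1 was higher with DESeq2, the likelihood ratio test and an unadjusted p, and 0 to 1 when each library was left out. For the difference between stages and from 2 to 3 weeks, calls over all genes are given below only for scaling alternatives. Whether the counts under other tests, other thresholds or libraries left out are unusual among all genes was not tested.

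Apart from Lfng at 3 weeks, which had passed, directions that turned were of values that had not passed. When each library was left out, the 2-week values of Lfng and Dll1 ran from -0.11 to 0.29 and from -0.058 to 0.55, and the differences between stages of Jag1, Jag2 and Dll1 from -0.41 to 0.91, -0.84 to 0.40 and -0.45 to 0.17. Under limma-voom the difference of Jag2 was 0.16. With library size only, the difference was 0.37 for Jag2 and 0.53 for Dll1, Notch4 from 2 to 3 weeks in NICD1/Akt livers was 0.25 and Notch2 in controls -0.052. With upper quartile scaling the first 2 were 0.027 and 0.12, and Notch2 in controls was -0.047. Scaling by library size moved the median over all genes, on the log2 scale, to 0.77 at 3 weeks, 0.21 at 2 weeks and 0.59 for the difference, and upper quartile scaling to 0.22, 0.04 and 0.21; the calls of all genes for the difference were then 3520 higher and 297 lower, and 2633 and 1124, in place of 2078 and 2180. With library size only, calls from 2 to 3 weeks were 3435 higher and 940 lower in NICD1/Akt livers in place of 1530 and 2402, and 1285 and 3058 in controls in place of 2406 and 2816; upper quartile scaling gave 1630 and 3946 in controls. Depth limits Jag2 most, with 1 to 48 counts per library. No paired analysis was possible because the labels give no replicate numbers shared between groups.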
